A study of Mus musculus with 4 samples.

Results

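The block from 78 to 86 Mb of mouse chromosome 15 (mm10) holds 845 accessibility peaks of the Sun1_WT library, chosen by their start positions, and 757 peaks of the Sun1_KO library that overlap one of them by at least 1 bp. Merging overlapping peaks gave 756 regions called in both libraries, of 113805 such regions genome-wide. The block had been picked because its accessibility differed between the genotypes in earlier results of these data, so the genotype values of its regions and genes are given as a description. Sun1_KO and Sun1_WT CT26 cells, a colon cancer line of BALB/c origin, had been grown as subcutaneous tumours in BALB/c mice and collected 14 days after injection. Whether each genotype of the line was 1 clone or a pool, how Sun1 was disrupted, how many tumours entered a library, and the age and sex of the mice are not stated in the labels. All groups share the line, the host strain and the day, and differ by label in the Sun1 genotype of the injected cells. Tumours were made into nuclei, and each nucleus was profiled for RNA and for chromatin accessibility. There was 1 library per genotype and assay, so no difference between genotypes has a replicate check and no p-value is given.

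Chromatin accessibility sequencing inserts adapters into open DNA, and the reads gather at promoters and enhancers. The number of reads from a stretch of a chromosome also depends on how many copies of that DNA a nucleus holds, in open and closed chromatin alike; DNA content was not measured here. Sun2, a gene of the block, encodes an inner nuclear membrane protein that, like SUN1, joins nesprins of the outer membrane in the LINC complex, which couples the nucleus to the cytoskeleton.

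The promoter windows of 5 genes of the block are shown because they span the patterns described. In Sun2 and Ep300, low promoter accessibility went with RNA above the median of all genes, and in Rbx1 and Snu13 with RNA below it. For Cacng2, a region of higher accessibility overlapped the window only at its upstream end and did not reach the annotated start. Each runs from 250 bases before to 50 bases after an annotated start, read 5′ to 3′ along the gene, from RefSeq (GRCm38.p6). Capitals mark the GC box (GGGCGG) and the CCAAT box (CCAAT) on both strands, and neighbouring matches can overlap or touch.
Sun2 promoter, chr15:79742487-79742786, minus strand: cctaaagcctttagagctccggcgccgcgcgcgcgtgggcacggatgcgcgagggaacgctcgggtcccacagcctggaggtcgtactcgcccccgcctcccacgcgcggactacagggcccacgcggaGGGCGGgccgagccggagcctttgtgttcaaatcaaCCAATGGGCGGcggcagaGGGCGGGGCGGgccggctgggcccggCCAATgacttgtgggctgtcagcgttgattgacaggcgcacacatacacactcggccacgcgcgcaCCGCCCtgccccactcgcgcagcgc
Ep300 promoter, chr15:81585964-81586263, plus strand: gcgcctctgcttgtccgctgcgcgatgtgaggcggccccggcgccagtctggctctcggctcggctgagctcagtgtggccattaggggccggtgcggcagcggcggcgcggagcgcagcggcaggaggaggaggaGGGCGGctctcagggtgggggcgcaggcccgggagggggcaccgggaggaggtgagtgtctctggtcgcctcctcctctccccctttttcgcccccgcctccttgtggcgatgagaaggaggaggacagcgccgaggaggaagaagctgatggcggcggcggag
Rbx1 promoter, chr15:81466066-81466365, plus strand: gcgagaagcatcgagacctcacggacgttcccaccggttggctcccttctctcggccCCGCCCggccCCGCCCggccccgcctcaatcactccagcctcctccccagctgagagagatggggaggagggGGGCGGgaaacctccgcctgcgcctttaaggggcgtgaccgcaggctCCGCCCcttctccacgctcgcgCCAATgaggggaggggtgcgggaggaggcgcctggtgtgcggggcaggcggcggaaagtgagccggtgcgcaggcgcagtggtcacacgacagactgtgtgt
Snu13 promoter, chr15:82047549-82047848, minus strand: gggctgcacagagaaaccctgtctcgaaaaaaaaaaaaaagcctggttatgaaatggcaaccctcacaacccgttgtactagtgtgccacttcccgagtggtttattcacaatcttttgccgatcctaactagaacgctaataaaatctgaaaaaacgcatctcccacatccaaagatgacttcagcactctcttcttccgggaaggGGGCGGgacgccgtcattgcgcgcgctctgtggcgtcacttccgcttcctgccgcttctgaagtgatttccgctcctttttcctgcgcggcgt
Cacng2 promoter, chr15:78119231-78119530, minus strand: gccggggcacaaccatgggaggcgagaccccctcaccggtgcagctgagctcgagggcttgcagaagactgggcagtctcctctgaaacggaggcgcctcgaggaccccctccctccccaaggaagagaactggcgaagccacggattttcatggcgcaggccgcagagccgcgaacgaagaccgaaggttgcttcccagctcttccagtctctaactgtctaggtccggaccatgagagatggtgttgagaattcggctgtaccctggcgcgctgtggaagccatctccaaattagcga
Sun2 held 5 GC boxes and 2 CCAAT boxes, Rbx1 held 4 and 1, Ep300 and Snu13 each held 1 GC box and no CCAAT box, and Cacng2 held neither. Of the 240 RefSeq promoter windows of the block, 45.8% held a GC box, against 35.7% of 32851 windows genome-wide, and 39.6% held a CCAAT box, against 37.4%. The median window of the block had 14 CG dinucleotides, and the median window of the genome 7. A match is a string of letters in a window and not a bound site.

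The Sun1_KO libraries held 2404 nuclei with 35471291 UMIs and 183750142 accessibility counts, and the Sun1_WT libraries 3455 nuclei with 53707675 UMIs and 227006096 accessibility counts. Nuclei were gated on marker RNA, none of it from the block: 1252 Sun1_KO and 2385 Sun1_WT nuclei passed the tumour gate, 382 and 332 the host gate, and 538 and 628 neither. All 12 tumour markers had at least 1 UMI over the tumour-gated nuclei of each library, and 11 of them over the host-gated nuclei. In tumour-gated nuclei they summed to 6682 CPM in Sun1_KO and 4871 CPM in Sun1_WT (CPM, UMIs per 1000000 UMIs of genes other than mitochondrial ones). Hmga2 alone made 4504 and 2815 CPM of these sums. Myeloid markers stood at 143 and 124 CPM in tumour-gated nuclei, and at 13519 CPM in Sun1_KO and 19063 CPM in Sun1_WT host-gated nuclei. These levels follow from the gates, which were set on the same genes, and do not check them. Xist, which was not used for gating, stood at 13.1 CPM in Sun1_KO and 5.06 CPM in Sun1_WT tumour-gated nuclei and at 1716 and 1966 CPM in host-gated nuclei. Fibroblast and mural markers, also not used, summed to 970 CPM in Sun1_KO and 1187 CPM in Sun1_WT tumour-gated nuclei. RNA of Sun1, the targeted gene, was at 64.4 CPM (61.1 to 67.9) in Sun1_KO and 105 CPM (102 to 108) in Sun1_WT tumour-gated nuclei, so it was lower but present, and reads outside the disrupted part check nothing. In all, 12 cell barcodes occurred in both libraries.

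In tumour-gated nuclei, the block held a smaller share of the accessibility counts in Sun1_KO than in Sun1_WT, whereas in host-gated nuclei of the same libraries the shares were close. The 756 regions took 0.754% of the tumour-gated counts in Sun1_KO, against 0.996% in Sun1_WT, a ratio of 0.757. Accessibility CPM and shares are relative to all counts in shared regions of the gate. The log2 ratio was -0.40, with a 95% counting interval from -0.405 to -0.397. In host-gated nuclei the block took 0.971% in Sun1_KO and 0.961% in Sun1_WT, a log2 ratio of 0.01. The covered length was nearly identical, 645496 bp in Sun1_KO and 645266 bp in Sun1_WT, so the density in tumour-gated nuclei was 11.7 CPM per kb in Sun1_KO and 15.4 in Sun1_WT. Intervals cover counting error only and are too narrow, because 74.98% of the nonzero Sun1_KO accessibility values and 75.5% of the Sun1_WT values were even, as when both ends of a fragment are counted. When each region was scored per nucleus as open or not, the log2 ratio in tumour-gated nuclei was -0.23.

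The peak sets themselves differed little. Of the 845 Sun1_WT peaks, 757 were overlapped by a Sun1_KO peak, which is 89.6%, as over all Sun1_WT peaks (89.6%). Of the 874 Sun1_KO peaks that start in the block, 117 overlapped no Sun1_WT peak of the block (13.4%), and over all Sun1_KO peaks 15.2% overlapped none. Of the 756 shared regions, 102 lay on a RefSeq promoter window, 449 in a gene body and 205 between genes. Their median width was 899 bp, against 902 bp genome-wide, and their median Sun1_WT level in tumour-gated nuclei was 5.81 CPM, against 3.15 CPM.

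All 8 windows of 1 Mb in the block were lower in Sun1_KO tumour-gated nuclei, between -0.33 (78 to 79 Mb) and -0.46 (83 to 84 Mb), with a median log2 ratio of -0.40. In host-gated nuclei the same windows lay between -0.06 and 0.05. Of 1910 autosomal windows, 28 (1.47%) were lower by at least 0.32 on the log2 scale in tumour-gated nuclei, a ratio of 0.8 or less, among them all 8 windows of the block and 1 other window of chromosome 15. The block was the only run of 2 or more neighbouring autosomal windows past that limit in tumour-gated nuclei. On the X chromosome there were 4 such runs, the longest also of 8 windows, from 6 to 14 Mb. With each region scored as open or not, 0 windows of chromosome 15 passed that limit.

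**Figure D1:**
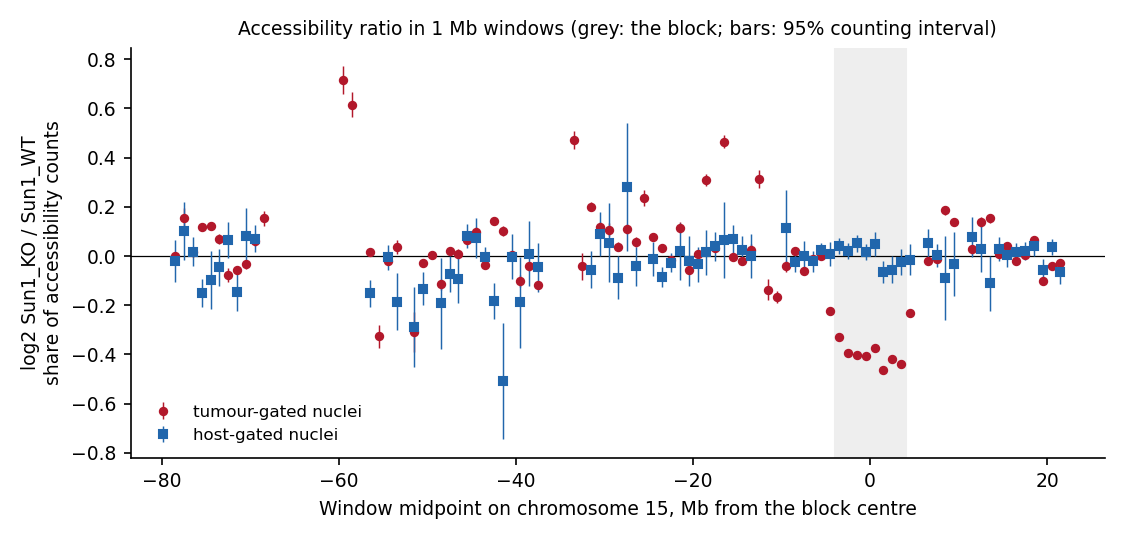
Log2 ratio of Sun1_KO over Sun1_WT accessibility in 1 Mb windows of chromosome 15 against distance from the block centre in Mb, for windows with at least 10 shared regions and 500 summed counts (red circles tumour-gated, blue squares host-gated, bars 95% counting intervals). The red points inside the grey block lie between -0.33 and -0.46, and the blue points there between -0.06 and 0.05.

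Stretches set off from the block on both sides did not share the difference. The windows next to the block were lower in tumour-gated nuclei, at -0.22 from 77 to 78 Mb and -0.23 from 86 to 87 Mb. From 70 to 77 Mb, 492 regions took 0.567% of the tumour-gated counts in Sun1_KO and 0.573% in Sun1_WT, a log2 ratio of -0.02. From 88 to 95 Mb, 291 regions took 0.346% in Sun1_KO and 0.335% in Sun1_WT, a log2 ratio of 0.04. Chromosome 15 without 77 to 87 Mb stood at 0.01, and the other autosomes together at 0.0050.

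The limits of 78 and 86 Mb are round numbers, and low ratios continued past both. In steps of 250 kb, tumour-gated nuclei stood at -0.04 from 77.25 to 77.5 Mb and at -0.47 from 77.5 to 77.75 Mb. The next steps stood at -0.45 up to 78 Mb and -0.30 up to 78.25 Mb. At the other side the ratio was -0.41 from 85.75 to 86 Mb, -0.25 up to 86.25 Mb and -0.22 up to 86.5 Mb, and the 4 regions from 86.5 to 86.75 Mb stood at 0.59. On this grid the low stretch thus ran beyond the block at both sides, from 77.5 to 86.5 Mb. Its last step held 6 regions, and host-gated nuclei were low there too, at -0.62 (-0.99 to -0.25) from 105 counts in Sun1_KO and 150 in Sun1_WT. Inside the block, tumour-gated nuclei stood at only -0.28 from 78.25 to 78.5 Mb and -0.21 up to 78.75 Mb.

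Single regions at the limits were scattered. The first region inside, chr15:78045515-78046472 in the body of Cacng2, had 318 counts in Sun1_KO and 267 in Sun1_WT tumour-gated nuclei, a log2 ratio of 0.85. The last region outside before it, chr15:77981967-77982865, had 1125 counts in Sun1_KO and 2256 in Sun1_WT, a log2 ratio of -0.41. The last region inside, chr15:85995793-85996706 in Celsr1, had 281 counts in Sun1_KO and 433 in Sun1_WT (-0.03, and 0.13 with each region scored as open or not). The first region after it, chr15:86007438-86008331, had 810 counts in Sun1_KO and 1183 in Sun1_WT (0.05). The intervals of the last region inside and the first after it both included 0.

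Across the 756 regions, 652 (86.2%) had a log2 ratio below 0 in tumour-gated nuclei, and the median was -0.38 with quartiles at -0.50 and -0.18. On the other autosomes 45.2% of the regions were below 0. By at least 0.32 on the log2 scale, 440 regions were lower in Sun1_KO and 28 higher, where 13.2% of 112959 measured regions genome-wide were lower and 18.9% higher. At 1.5-fold, 113 were lower and 7 higher, against 5.42% and 7.7% genome-wide. All 756 regions had at least 50 summed counts in tumour-gated nuclei, so none was lost to that filter. In host-gated nuclei 445 regions reached it, with a median of 0.0012, 79 lower and 65 higher by at least 0.32, where 20.1% and 15.1% of the measured regions were so genome-wide.

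Among the regions, the ratio varied with level and promoter position, and it did so on the other autosomes too. Regions on promoter windows were tight, with a median of -0.42 and quartiles at -0.48 and -0.35 over 102 regions, whereas the promoter regions of the other autosomes had a median of -0.0084. The other 654 regions of the block had a median of -0.36 with quartiles at -0.51 and -0.16, and such regions of the other autosomes had a median of 0.04. Among the regions in the top tertile of Sun1_WT level, 348 of 360 were below 0 (median -0.41), and in the bottom tertile 97 of 143 (median -0.20). On the other autosomes the median was -0.01 in the top tertile, with 54.2% below 0, and 0.16 in the bottom tertile, with 34.7% below 0. The Sun1_WT level that sets the tertiles is also the denominator of the ratio, so a lower ratio at high level is partly built in. Regions that were open in host-gated nuclei at 5 CPM or more had a tumour-gated median of -0.39 (354 regions), and the other 402 regions one of -0.34.

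**Figure D2:**
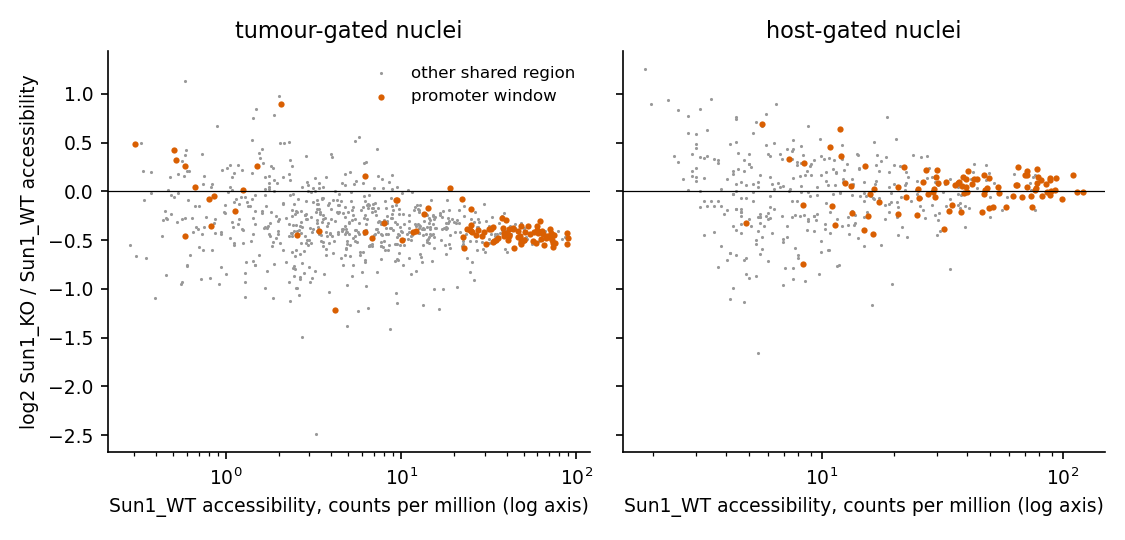
Log2 ratio of Sun1_KO over Sun1_WT accessibility of each shared region of the block against its Sun1_WT level in CPM (log axis), in tumour-gated (left) and host-gated (right) nuclei, for regions with at least 50 summed counts and counts in both libraries. Promoter regions (orange) of high level lie close to -0.42 on the left and close to 0.04, their median, on the right.

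The 3 regions with the most counts were all promoters. The region at Rbx1 (chr15:81465917-81466774) had 7768 counts in Sun1_KO and 15756 in Sun1_WT tumour-gated nuclei, or 65.5 and 87.9 CPM, a log2 ratio of -0.43. The region at D130051D11Rik (chr15:85634248-85635123) had 7652 counts in Sun1_KO and 16081 in Sun1_WT (-0.48). The region at Tef, a bZIP transcription factor gene (chr15:81810784-81811695), had 7234 counts in Sun1_KO and 15834 in Sun1_WT (-0.54). In host-gated nuclei these regions stood at -0.0023 (Rbx1), 0.17 (D130051D11Rik) and -0.0052 (Tef). The raw counts also reflect that fewer Sun1_KO nuclei passed the gate, which the CPM and the ratios take into account.

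The start of Sun2 lies in a region, chr15:79741908-79742849, that also lies on a promoter window of Gm16576. The region had 5954 counts in Sun1_KO and 12441 in Sun1_WT tumour-gated nuclei, 50.2 and 69.4 CPM, a log2 ratio of -0.47 (-0.51 to -0.42). In host-gated nuclei it had 846 counts in Sun1_KO and 674 in Sun1_WT, a log2 ratio of 0.23 (0.08 to 0.37). The ratio at this promoter was thus below 0 in the tumour-gated and above 0 in the host-gated nuclei. The host-gated value lay within the usual spread of host-gated promoter regions. On the other autosomes their 5th and 95th percentiles were -0.41 and 0.37.

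A few regions departed from the rest of the block. The lowest lay between genes nearest Rbx1, at chr15:81480796-81481687, with 69 counts in Sun1_KO and 586 in Sun1_WT tumour-gated nuclei, a log2 ratio of -2.49 (-2.87 to -2.13), which was -1.62 in the looser and -3.80 in the stricter tumour gate. Its host-gated counts were 140 in Sun1_KO and 159 in Sun1_WT. The other low regions named by rank lay near Wnt7b (chr15:85603133-85604049, -1.41), near Prr5 (chr15:84639219-84640204, -1.49), in Enthd1 (chr15:80487427-80488245, -1.38) and in Tnrc6b (chr15:80849752-80850651, -1.21). The Wnt7b region stood at -0.62 in the stricter gate, the Prr5 region at -2.08 after thinning, and the Tnrc6b region at -0.76 with each region scored as open or not. These 4 had at most 15 host-gated counts in a library.

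Higher regions were few and of low level. Near Fbln1, an extracellular matrix gene, a region at chr15:85177326-85178224 had 469 counts in Sun1_KO and 359 in Sun1_WT tumour-gated nuclei (0.98, and 0.48 after thinning). A region in the body of Mfng, a Notch-modifying glycosyltransferase gene (chr15:78771682-78772639), had 152 counts in Sun1_KO and 105 in Sun1_WT (1.13), and 294 and 161 in host-gated nuclei (0.77). The promoter region of Cacng2, a calcium channel gamma subunit gene (chr15:78119460-78120377), had 458 counts in Sun1_KO and 372 in Sun1_WT tumour-gated nuclei (0.90), and 83 and 98 in host-gated nuclei. That region also lies on a promoter window of A730060N03Rik. A region in Xrcc6 (chr15:81990824-81991649) stood at 0.78. The Cacng2 window printed above, with neither motif, overlaps the promoter region of Cacng2 only at its upstream end, so most of the printed bases lie outside that region.

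The lower share was spread over the tumour-gated nuclei. Among nuclei with at least 10000 counts in shared regions, the block share had a median of 0.757% in 1149 Sun1_KO tumour-gated nuclei, with quartiles at 0.721% and 0.793%. In 2168 Sun1_WT tumour-gated nuclei the median was 1.00%, with quartiles at 0.9498% and 1.05%. The interquartile ranges of the genotypes thus did not overlap, while the full ranges did, from 0.412% to 1.15% in Sun1_KO and from 0.416% to 1.503% in Sun1_WT. In host-gated nuclei the medians were 0.968% in 310 Sun1_KO nuclei and 0.953% in 280 Sun1_WT nuclei. Nuclei of a library are not replicates of its genotype.

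Below 0.878%, the midpoint of the tumour-gated medians, lay 96.0% of the Sun1_KO and 9.73% of the Sun1_WT tumour-gated nuclei. In host-gated nuclei 23.5% of the Sun1_KO and 25.4% of the Sun1_WT nuclei lay below it. Part of the spread is counting error, since the median tumour-gated nucleus had 697 block counts in Sun1_KO and 752.5 in Sun1_WT. Depth differed too, with medians of 91946 counts in shared regions in Sun1_KO and 75924.5 in Sun1_WT. After each nucleus was thinned to 10000 counts, 87.5% of the Sun1_KO and 16.9% of the Sun1_WT tumour-gated nuclei lay below the midpoint, and the medians were 0.750% and 1.00%.

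**Figure D3:**
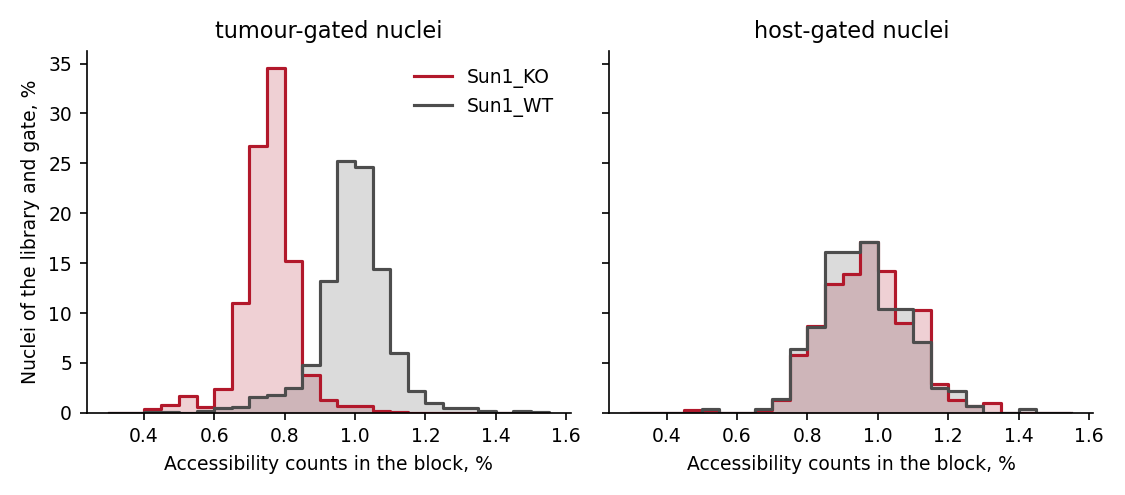
Share of each nucleus's accessibility counts that falls in the block, in percent, as a histogram of nuclei with at least 10000 counts (Sun1_KO red, Sun1_WT grey; tumour-gated left, host-gated right). Tumour-gated Sun1_KO nuclei centre on 0.757% and Sun1_WT nuclei on 1.00%, and the host-gated histograms lie on each other with medians of 0.968% and 0.953%.

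As a share of chromosome 15 alone, the block took a median of 15.01% in Sun1_KO and 19.0% in Sun1_WT tumour-gated nuclei, and 94.1% and 5.49% of these nuclei lay below 17.0%. The rest of the chromosome took 4.30% of the counts of the median Sun1_KO and 4.26% of the median Sun1_WT tumour-gated nucleus. Myeloid-gated nuclei had block medians of 0.951% in Sun1_KO and 0.926% in Sun1_WT, and lymphoid-gated nuclei of 1.03% (61 nuclei) and 1.05% (55 nuclei). Nuclei in neither gate stood at 0.825% in Sun1_KO and 0.986% in Sun1_WT. Summed over nuclei, the log2 ratio of the block was 0.03 in myeloid-gated and -0.048 in lymphoid-gated nuclei.

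The stretches of low accessibility on the X chromosome split the Sun1_WT tumour-gated nuclei, 482 of which had under 0.3% of their counts there and 1686 more. The Sun1_WT block shares were close across that split, with medians of 0.997% in the low and 1.00% in the other Sun1_WT nuclei. Of the Sun1_KO nuclei, 1127 of 1149 were low in the X stretches, with a block median of 0.756%, and the other 22 had a median of 0.823%. Against the low Sun1_WT nuclei alone, the log2 ratio of the block in summed counts was -0.39.

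RNA of the block was measured for 192 genes, of 315 RefSeq genes that start there, and 101 of them had at least 100 summed UMIs in tumour-gated nuclei. The 101 genes are not the whole block, because silent genes drop out. Their median log2 ratio was -0.24, against 0.14 over all 12848 measured genes, a gap of -0.38. With TMM or median-ratio scaling the median of all genes was set close to 0 and the block median was -0.38, and the share of genes past 0.32 in either direction that were higher, over all genes, was 41.99% or 42.1% in place of 62.8%. Ratios are therefore also set beside the median of all genes, and 82 of the 101 lay below it. Fold calls, and the words lower and higher, refer to a log2 ratio of 0 under the main scaling. With median-ratio scaling, 34 of the 101 were at least 1.5-fold lower, against 13.8% of all genes, and 1 was higher.

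At 1.5-fold, 27 of the 101 genes were lower in Sun1_KO tumour-gated nuclei, against 9.25% of all measured genes, and 1 was higher, against 11.5%. By at least 0.32 on the log2 scale, 47 were lower and 8 higher, against 18.8% and 31.7%. In host-gated nuclei, 49 genes of the block were measured, with a median of 0.10 against 0.09 over all genes, and 5 were at least 1.5-fold lower and 3 higher, against 5.21% and 6.05%. Over the 43 genes measured in both gates, the tumour-gated ratio was below the host-gated ratio for 36, and the median difference was -0.37. Over 5640 genes measured in both gates genome-wide the median difference was 0.02, and 48.2% lay below. The Spearman correlation of the tumour-gated and host-gated ratios was 0.59 for block genes and 0.47 for all genes.

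Ratios also moved with gene length. Among block genes under 10 kb the median was -0.42 (26 genes), from 10 to 50 kb -0.22 (58 genes), and at 50 kb or more -0.09 (17 genes). Over all genes of these lengths the medians were -0.14, 0.14 and 0.29, so the block was lower in each class. Mitochondrial genes, left out of the totals, took 11.2% of UMIs in Sun1_KO and 6.93% in Sun1_WT tumour-gated nuclei. The part of RNA quality in these ratios was not tested.

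Of the nuclear envelope and transport genes, Sun2 was higher in Sun1_KO and the other 2 measured members were slightly lower, though Rangap1 turned to 0.05 in the stricter gate. Sun2 had 1088 UMIs (49.1 CPM) in Sun1_KO and 1581 UMIs (38.1 CPM) in Sun1_WT tumour-gated nuclei, a log2 ratio of 0.37 (0.25 to 0.48), which was 0.22 under TMM scaling and 0.65 in the stricter gate. In host-gated nuclei it had 89 UMIs in Sun1_KO and 49 in Sun1_WT, a log2 ratio of 0.87 (0.36 to 1.41). Its RNA was thus higher in both gates, while its promoter region was at -0.47 in the tumour gate. Rangap1, the activator of the Ran GTPase, had 96.1 CPM in Sun1_KO and 114 CPM in Sun1_WT (-0.24), and the nucleoporin gene Nup50 had 47.2 and 53.5 CPM (-0.18).

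Of the chromatin and transcription genes, 18 were measured and 13 lay below the median of all genes, against 81.2% of the measured block genes. Of the 18, 5 were at least 1.5-fold lower, against 26.7% of block genes and 9.25% of all genes, and 0 were higher. The lowest were Maff, a small Maf transcription factor gene, with 9.39 CPM in Sun1_KO and 20.02 CPM in Sun1_WT (-1.09), and Phf5a, a gene of the spliceosomal SF3B complex, with 27.4 CPM in Sun1_KO and 56.4 CPM in Sun1_WT (-1.04, and -0.55 in the stricter gate). Tef stood at -0.96 and the RNA polymerase II subunit gene Polr2f at -0.72. At the high end were Phf21b (0.37) and Tcf20, a transcriptional coregulator gene with 241 CPM in Sun1_KO and 194 CPM in Sun1_WT (0.32). Ep300, which encodes a histone acetyltransferase, had 153 CPM in Sun1_KO and 124 CPM in Sun1_WT (0.30), with a host-gated ratio of 0.30. Its promoter region had 3333 counts in Sun1_KO and 6927 in Sun1_WT, a log2 ratio of -0.46. Phf21b (70.8 kb), Tcf20 (180 kb) and Ep300 (65.9 kb) are long genes, and the median over all genes of 50 kb or more was 0.29.

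The translation, RNA and ribosome genes all lay below the median of all genes, 10 of 10 measured, with a list median of -0.49. Below that median lay 81.2% of the measured block genes and 70.7% of all genes under 10 kb. The lowest members of the list, Snu13 (6.25 kb) and Rps19bp1 (3.69 kb), are of that length. Snu13, a gene of a protein of the U4 and box C/D ribonucleoproteins, had 1684 UMIs (76.0 CPM) in Sun1_KO and 6733 UMIs (162 CPM) in Sun1_WT, a log2 ratio of -1.09. It was low in host-gated nuclei as well, at 78 UMIs in Sun1_KO and 147 in Sun1_WT (-0.89). Rps19bp1 stood at -1.07 in tumour-gated nuclei and at -1.12 (-2.06 to -0.28) in host-gated nuclei, with 17 host-gated UMIs in Sun1_KO and 38 in Sun1_WT. Rpl3, a large ribosomal subunit gene, stood at -0.63 in tumour-gated and -0.09 in host-gated nuclei. Ddx17, a DEAD-box RNA helicase gene, was the highest at 0.13, but stood at -0.0077 under TMM scaling and -0.05 in the stricter gate, and Gtpbp1 followed at -0.0081.

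Of 17 measured mitochondria and metabolism genes, 16 lay below the median of all genes, against 81.2% of the measured block genes. Of the 17, 7 were at least 1.5-fold lower, against 26.7% of block genes and 9.25% of all genes, and 0 were higher. The list median was -0.43. Tspo, which encodes a translocator protein of the outer mitochondrial membrane, had 3083 UMIs (139 CPM) in Sun1_KO and 15517 UMIs (374 CPM) in Sun1_WT, a log2 ratio of -1.43. Its host-gated ratio was -0.90, from 333 UMIs in Sun1_KO and 629 in Sun1_WT. Pmm1, a phosphomannomutase gene, stood at -1.27, the complex I subunit gene Ndufa6 at -1.05, and the outer membrane import gene Tomm22 at -0.60. The highest were Pla2g6 (0.18) and Xpnpep3 (-0.07). The host-gated ratio of Tomm22 was -0.06.

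Of 14 measured cytoskeleton, adhesion and traffic genes, 12 lay below the median of all genes, against 81.2% of the measured block genes. Of the 14, 2 were at least 1.5-fold lower, against 26.7% of block genes and 9.25% of all genes. Lgals1, which encodes the secreted lectin galectin-1, had 24272 UMIs (1095 CPM) in Sun1_KO and 124972 UMIs (3014 CPM) in Sun1_WT tumour-gated nuclei, the lowest ratio of the block at -1.46 (-1.48 to -1.44). In host-gated nuclei it had 1244 UMIs in Sun1_KO and 2598 in Sun1_WT, a log2 ratio of -1.05. Tumour markers summed to 488 CPM in Sun1_KO and 539 CPM in Sun1_WT host-gated nuclei, and their part in the host value was not tested. Lgals1 alone moved the summed RNA of the block, which took 0.627% of UMIs in Sun1_KO and 0.959% in Sun1_WT (-0.61), and 0.517% and 0.658% without Lgals1 (-0.35). Arfgap3, a gene of Golgi traffic, was next at -0.69, and Sh3bp1 (0.30) and Cdc42ep1 (0.23) were the highest.

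The cell cycle, DNA repair and ubiquitin list had 6 measured members of 9, all below the median of all genes, as were 81.2% of the measured block genes. Rbx1, the RING subunit gene of cullin ubiquitin ligases, had 84.9 CPM in Sun1_KO and 152 CPM in Sun1_WT (-0.84), and Xrcc6, which encodes the Ku70 end-joining protein, 29.2 and 41.4 CPM (-0.50). The host-gated ratio was -0.55 (-0.84 to -0.27) for Rbx1 and -0.59 (-1.34 to 0.12) for Xrcc6. Gtse1 (0.04, and -0.10 under TMM scaling) and Apobec3 (-0.01, and 0.09 after thinning) were the highest. The signalling list had 3 measured members of 10, Csnk1e (-0.24, but 0.18 after thinning), Sgsm3 (-0.04) and Tab1 (0.16), none past 0.32 in either direction.

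The leukocyte list held the only gene at least 1.5-fold higher among the 101 block genes with 100 or more summed UMIs. Below that minimum, Cyth4 of the same list had 59 UMIs in Sun1_KO and 33 in Sun1_WT (1.73), and Il2rb had 44 and 30 (1.45). Rac2, a gene of blood cells, had 61 UMIs in Sun1_KO and 44 in Sun1_WT tumour-gated nuclei, a log2 ratio of 1.37 (0.79 to 1.97), at 2.75 and 1.06 CPM. In host-gated nuclei it had 232 UMIs in Sun1_KO and 260 in Sun1_WT (-0.15). Ncf4, an NADPH oxidase subunit gene of phagocytes, stood at 0.44 in the tumour gate and -0.0034 in the host gate. All 15 myeloid markers had at least 1 UMI in both tumour gates, with sums of 143 CPM in Sun1_KO and 124 CPM in Sun1_WT, and their part in these ratios was not tested. The host-gated leukocyte list had 8 measured members with a median of 0.05.

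Outside the lists, the lowest gene named by the rule was Dnal4, a dynein light chain gene, with 133 UMIs in Sun1_KO and 591 in Sun1_WT tumour-gated nuclei (-1.24). In host-gated nuclei Dnal4 had 6 UMIs in Sun1_KO and 14 in Sun1_WT (-1.14, with an interval from -2.87 to 0.26). Nptxr, which encodes a neuronal pentraxin receptor, was among the highest, with 804 UMIs in Sun1_KO and 1172 in Sun1_WT (0.36). Along the block, the gene medians of the 8 windows of 1 Mb lay between -0.43 (83 to 84 Mb, 12 genes) and -0.06 (79 to 80 Mb, 26 genes), all below the median of all genes. The block also holds 16 miRNA genes, whose mature RNAs were not measured; Mirlet7c-2 and Mirlet7b lie in Lncppara, a long noncoding RNA gene with 2803 UMIs in Sun1_KO and 5198 in Sun1_WT tumour-gated nuclei (0.01) and a host-gated ratio of 0.82. From 77 to 78 Mb, before the block, 11 genes had a median of -0.34, and from 76 to 77 Mb 38 genes had one of 0.13.

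Promoter accessibility and RNA could be set side by side for 75 measured genes. The promoter regions had a median log2 ratio of -0.43 with quartiles at -0.48 and -0.38, and 72 of 75 were below 0. Of the promoter regions of the other autosomes, 53.5% were below 0. RNA of the same 75 genes was far more spread, with quartiles at -0.57 and -0.01, and 17 of the 75 were above 0. Over all measured genes, RNA was above 0 for 7981 of 12848. For 11 genes, among them Sun2 and Ep300, the promoter was lower by at least 0.32 and the RNA above 0. For 7 of the 11, Sun2 and Ep300 included, the RNA was also above the median of all genes. The share of such genes outside the block is not given here. The RNA ratio of Ep300 (0.30) was close to the median over all genes of 50 kb or more (0.29). Across these genes the Spearman correlation of promoter and RNA ratios was 0.30, over 75 points that share the same 2 pairs of libraries.

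**Figure D4:**
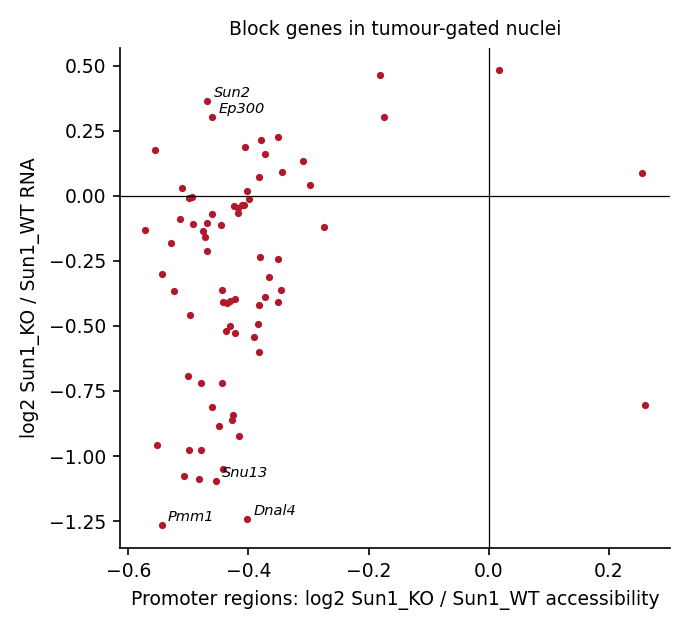
Log2 ratio of Sun1_KO over Sun1_WT RNA (vertical) against that of the promoter regions (horizontal) for the 75 measured block genes with such a region, in tumour-gated nuclei. The points form a column at promoter values near -0.43 while RNA runs from below -1 at Pmm1, Dnal4 and Snu13 to above 0 at Sun2 and Ep300.

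The authors' deposited table of fold changes, for which the input nuclei and scaling are not stated, held 86 genes of the block. In the authors' deposited table their median log2 fold change, Sun1_KO over Sun1_WT, was 0.38, against 0.59 over all 10156 genes. In the authors' deposited table, 23.3% of the block genes and 7.08% of all genes were below 0. The authors' deposited table gave -1.12 for Lgals1, -1.13 for Tspo, -0.73 for Snu13, 0.79 for Sun2 and 0.77 for Ep300.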

How the data were processed

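The authors deposited raw counts of each nucleus, UMIs for genes and accessibility counts for peaks. Per the submitters' processing notes, FastQC, Cell Ranger, Cell Ranger ARC, Seurat, Signac and mm10 were used, with no versions stated. In the authors' deposited table, baseMean is a signal (counts over size factors), the log2 fold changes and their score (the Wald statistic) come from DESeq2, per the file headers, and the deposited p-values were not used.

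Members, lists and gates were chosen with earlier results of these data known. The 2172 Sun1_KO and 3345 Sun1_WT nuclei used had 500 or more UMIs, 300 or more genes and no more than 20% mitochondrial UMIs, and doublets were not called. The tumour gate took at least 1000 CPM of tumour markers and under 500 CPM of host markers, and the host gate at least 3000 CPM of host and under 1000 CPM of tumour markers. Accessibility was scaled by the total over shared regions of the gate, and RNA by the total without mitochondrial genes, with 0.5 added. Intervals are exact conditional binomial, at 95%. Named were Sun2, the 2 lowest and 2 highest members of each list, the 5 lower and 5 higher genes and regions by the bound nearest 1, the 3 regions with most counts and those at the limits. Other genes and regions named were chosen after their values were seen. RefSeq placed 26627 of 32285 genes. Ratios were checked on simulated counts drawn independently, which lack paired fragment ends and variation between libraries, so the check does not cover these. Python 3.11.15, pandas 2.3.3, scipy 1.17.1 and edgeR 4.0.16 (scaling only) were used. Values of 1 gene of the lists are not reported here.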

Additional observations from a re-analysis of the deposited data

Results flagged for a closer look

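The log2 ratio of block accessibility, Sun1_KO over Sun1_WT, was -0.40 in tumour-gated nuclei and 0.01 in host-gated nuclei of the same libraries. The ratios thus ran in opposite directions in the gates. The difference was not tested, since there was 1 library per genotype. The host value was near 0 and its direction turned in lymphoid-gated nuclei (-0.048).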

How the results depend on the processing

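Block accessibility in tumour-gated nuclei stayed lower in Sun1_KO under each alternative run. Against -0.40, it was -0.41 with the total over other autosomes or over all peaks, -0.40 with the window median set to 0, -0.39 with fragments, -0.41 after thinning, -0.37 over all peaks per kb, -0.41 with a stricter gate and -0.39 with a looser one. It was -0.41 with the block narrowed and -0.37 with it widened by 1 Mb on each side, and -0.23 with each region scored as open or not. That last setting also gave 210 regions lower by at least 0.32 (log2) in place of 440, 54 at 1.5-fold in place of 113, and 0 windows of chromosome 15 in place of 9. The cause was not tested. In host-gated nuclei the ratio was -0.048 for lymphoid nuclei alone and -0.0021 for nuclei with no tumour-marker UMI. The log2 ratio of the per-nucleus medians, -0.40, was -0.42 after thinning and -0.40 in the stricter gate. Chosen after seeing the data, Sun1_WT nuclei low in the X stretches gave -0.39, and a block begun 0.5 Mb earlier gave -0.41.

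The RNA median of -0.24 was -0.18 with a minimum of 20 UMIs, -0.27 with 500, -0.38 under TMM or median-ratio scaling, -0.30 with mitochondrial genes in the total, -0.31 in the stricter gate and -0.30 after thinning. Relative to all genes, at -0.38, it was -0.34 with 20 UMIs, -0.41 with 500 and -0.44 after thinning. Genes at least 1.5-fold lower numbered 11 of 59 measured in the stricter gate and 17 of 47 after thinning, with fewer genes measured. Over all genes measured in these settings, 7.43% and 8.88% were so. Genes at least 1.5-fold higher numbered 4 of 119 with a minimum of 20 UMIs, and 0 with 500 or after thinning. Over all genes they numbered 2805 of 16348 with 20 UMIs, 761 of 9999 with 500 and 598 of 6270 after thinning. No paired analysis was possible because there was 1 library per genotype and assay, and no replicate could be left out.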
